A study of Mus musculus with 2 samples.

Results

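Microglia in which 7 long genes, Zdhhc14, Dlc1, Cdc42bpa, Prkce, Myo18b, Pard3b and Fhit, supplied a large share of the RNA were described among sorted mouse brain cells. A cell was a member when its summed share of gene UMIs (counted RNA molecules) from the 7 genes lay in the top 25% of all cells with 1 hashtag (singlets). This gave 1976 members of 7903 singlets, with a cut at 0.189% of UMIs, and they were compared with the 1976 cells of the bottom 25%, at or below 0.0731%, called low-share cells here. The share was spread without a gap, so membership marks a range and not a separate type.

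The cells came from perfused brains of 12-week-old mice, all heterozygous for Cx3cr1CreERT2(Litt), an allele that expresses a tamoxifen-inducible Cre recombinase from the promoter of the fractalkine receptor gene of microglia. Mice received oil or tamoxifen (TAM) for 4 weeks, and CD11b+ CD45+ Ly6G- CD206- cells were sorted, marked with hashtag antibodies and run as 1 droplet pool. There were 5 oil hashtags (Oil1 to Oil5) and 5 TAM hashtags (TAM1 to TAM5). Nothing in the labels ties a hashtag to 1 mouse, so p-values measure hashtag-to-hashtag spread and this may be technical. Oil1, Oil2, TAM1 and TAM2 read as male from Xist and Y-linked RNA and the other 6 as female. No mice without Cre were analysed here. A hashtag held 619 to 935 singlets, of which 119 to 286 were members, with 581260 to 1480036 UMIs of members.

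Microglia are the resident macrophages of the brain, kept in a surveying state by signals such as TGF-beta and CSF1, and they move their processes by remodelling actin under small GTPases such as CDC42 and RAC1. Several of the 7 genes have roles near that machinery: Dlc1 encodes a GTPase-activating protein, Cdc42bpa the CDC42-binding kinase MRCK alpha and Myo18b an unconventional myosin. Prkce encodes protein kinase C epsilon, Pard3b a cell polarity protein, Zdhhc14 a palmitoyl acyltransferase and Fhit a diadenosine triphosphate hydrolase at a common fragile site. Long genes have mostly intronic sequence, and in this matrix UMIs from introns and exons cannot be told apart.

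All 7 genes spanned more than 200 kb of GRCm38 in the GENCODE M21 annotation. Pard3b lay at chr1:61638824-62642284 (plus strand) and Cdc42bpa at chr1:179960472-180165603 (plus). Myo18b lay at chr5:112688876-112896362 (minus), Dlc1 at chr8:36567751-36953143 (minus) and Fhit at chr14:9550092-11162035 (minus). Zdhhc14 and Prkce lay on the plus strand of chromosome 17, at chr17:5492557-5753811 and chr17:86167785-86657919. The spans ran from 205 kb for Cdc42bpa to 1612 kb for Fhit.

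The 7 genes chose the members, so their levels are given without a test. A member had a median of 13 UMIs from them, against 2 in low-share cells, and 265 singlets had none. Fhit supplied 29.6% of the members' UMIs from the 7 genes, Pard3b 19.9%, Prkce 17.1% and Zdhhc14 14.1%. Dlc1 supplied 11.0%, Myo18b 4.86% and Cdc42bpa 3.51%. Fhit therefore had the most weight in the sum: without it, 74.1% of members stayed in the top 25%, against 94.1% without Cdc42bpa.

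**Figure D1:**
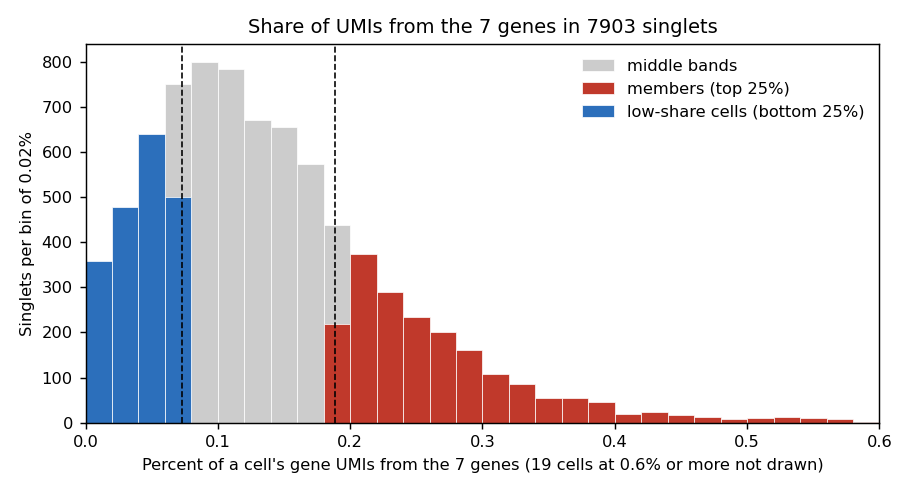
Histogram of the percent of a cell's gene UMIs from the 7 genes (x axis) against the number of singlets per bin of 0.02% (y axis), with dashed lines at the 2 cuts. The distribution has 1 peak, between 0.08% and 0.1%, and falls through the upper cut at 0.189% without a gap.

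CPM, a gene's UMIs scaled to a common total, were computed from cells summed per hashtag in 4 bands of equal size (bottom 25%, 2 middle bands and members), and the mean of each gene rose from band to band. Zdhhc14 was at 340 to 427 CPM in the members of the 10 hashtags (median 362) and at 68.6 to 105 CPM in low-share cells (median 82.1). Dlc1 was at 191 to 332 CPM (median 293) against 19.2 to 50.02 CPM (median 37.5). For Fhit the values were 706 to 938 CPM (median 772) against 61.4 to 97.8 CPM (median 80.2). No gene's ranges overlapped between members and low-share cells, which the rule favours. The remaining genes were 4.14-fold (Cdc42bpa), 4.75-fold (Myo18b), 4.90-fold (Prkce) and 6.37-fold (Pard3b) higher in members by their mean CPM.

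**Figure D2:**
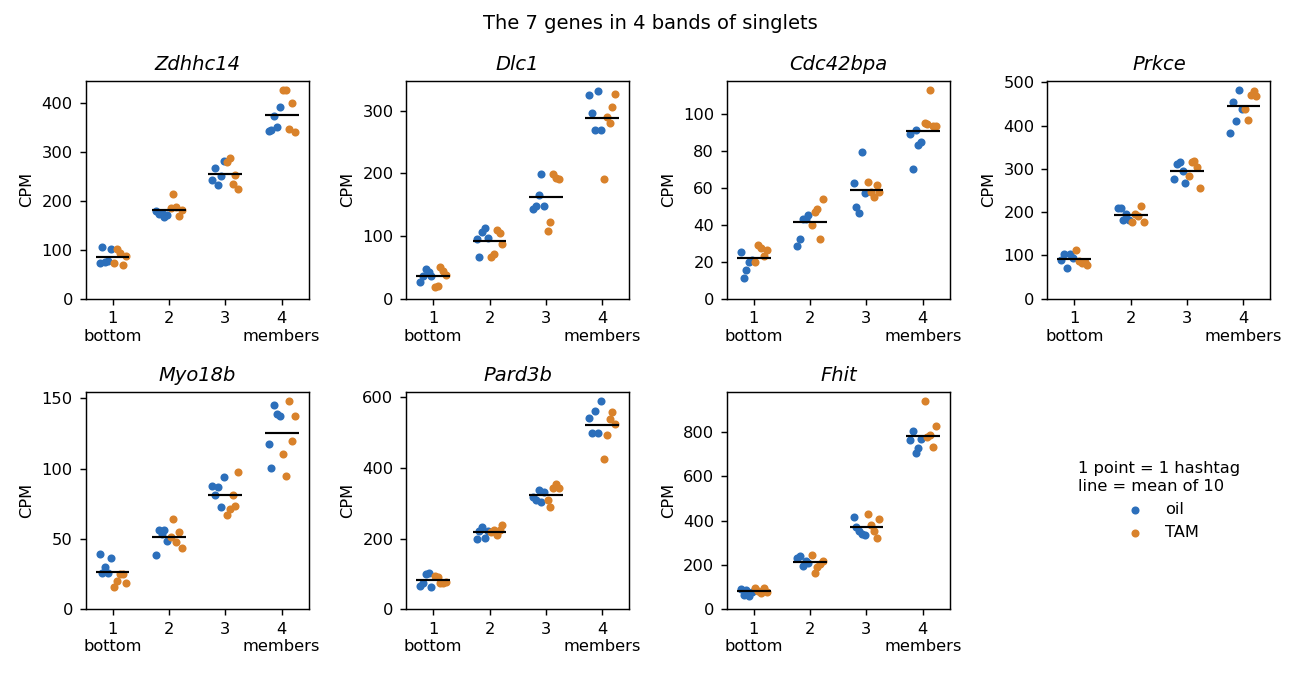
CPM of each of the 7 genes (y axes, linear from 0) in the 4 bands of singlets (x axes), 1 point per hashtag and a line at the mean of 10. Mean Zdhhc14 goes from 85.6 CPM in low-share cells through 180 and 255 to 374 CPM in members.

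The separation was smaller in UMIs that took no part in the choice. When the UMIs of each cell were split at random into 2 equal parts, so that one part chose the cells and the other was measured, the 7 genes made up 0.208% ± 0.0153 of UMIs in members and 0.0888% ± 0.00560 in low-share cells (SD, n = 10 hashtags). That is a ratio of 2.35, against 6.20 when the same UMIs chose and measured, and it was above 1 in 10 of 10 hashtags. Of the top 25% of cells in one part, 48.8% were in the top 25% by the other part and 8.76% in its bottom 25%. Each gene was also higher in the top than in the bottom 25% of cells chosen by the other 6 genes, in 10 of 10 hashtags, by 1.48-fold (Fhit) to 1.95-fold (Myo18b). Among cells at the cut, the 100 members just inside had a median of 0.191% of UMIs from the 7 genes and the 100 cells just outside 0.186%. Both sets had a median of 10.9% of UMIs from other long genes. Of the members, 428 (21.7%) were within 1 UMI of the cut.

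The members carried the markers of microglia. Their median cell had a UMI of all 14 listed microglial markers, as in low-share cells, and summed marker RNA was 32524 to 35837 CPM in members and 34424 to 40374 CPM in low-share cells. Markers of other cells in the sort gate were near 0. The 8 genes of CNS-associated macrophages summed to 1.38 to 22.3 CPM in members, with Pf4, Cd163, Lyve1, Ms4a7, F13a1 and Clec12a at 0, and the 7 monocyte genes to 1.72 to 19.3 CPM, with Ly6c2 and Chil3 among the genes at 0. In low-share cells these sums reached 71.5 and 142 CPM. Neutrophil genes summed to 359 to 492.8 CPM in members, nearly all of it Csf3r, with S100a8, S100a9, Ly6g, Retnlg and Mmp8 at 0. Lymphocyte genes summed to 0 to 1.60 CPM, with Cd3e, Cd3d, Trac, Cd79a and Nkg7 among the genes at 0. The 6 dendritic cell genes summed to 5.16 to 18.1 CPM, with Cd209a at 0, against 8.65 to 36.5 CPM in low-share cells.

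Of non-myeloid brain cells, genes of neurons and oligodendrocytes were also low. Most of the higher astrocyte and endothelial sums in members came from Slc1a3 (mean 303 CPM) and Bsg (mean 316 CPM). The 8 neuronal genes summed to 63.3 to 102 CPM in members and 44.7 to 87.3 CPM in low-share cells, and the 7 oligodendrocyte genes to 43.6 to 63.3 and 48.9 to 73.0 CPM. The 7 astrocyte genes summed to 262 to 358 and 240 to 333 CPM, with Gfap and Gja1 at 0 in members, and the 7 endothelial genes to 326 to 401 and 418 to 480 CPM, with Cldn5, Ly6c1 and Slco1a4 at 0.

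A subset of members was shallow. Cells under 2000 UMIs numbered 175 among members and 76 in low-share cells. The shallow members had UMIs of a median of 8 of the 14 markers, a median of 1.19% of UMIs from these markers against 3.43% in deeper members, and 19.8% of UMIs from other long genes against 11.5%. Their median mitochondrial share was 2.48%, against 0.728% in deeper members. They made up 6.52% to 10.9% of the members of each hashtag. Fewer than 7 markers were seen in 40 members and 35 low-share cells. Results below were therefore also run over cells with at least 2000 UMIs and 7 markers, a choice made after seeing the data.

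Members held more RNA than low-share cells, more of it from other long genes and less from mitochondrial and ribosomal protein genes. The median member had 5159 ± 132 UMIs and the median low-share cell 4522 ± 163 (mean ± SD over 10 hashtags). Genes detected per cell were 2514 ± 47.0 against 2263 ± 46.2, and after thinning every cell to 2000 UMIs, which leaves out shallower cells, 1295 against 1274. The 1070 other genes of 200 kb or longer made up 11.8% ± 0.331 of UMIs in members and 9.05% ± 0.255 in low-share cells. Per hashtag the values were 11.4% to 12.2% (median 11.9%) and 8.65% to 9.53% (median 8.98%), so the ranges did not overlap.

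Transcripts of the 13 mitochondrial genes, which are made outside the nucleus and encode respiratory chain subunits, took 0.844% ± 0.0361 of UMIs in members and 1.05% ± 0.0886 in low-share cells. Per hashtag they ran from 0.792% to 0.904% (median 0.852%) in members and from 0.947% to 1.25% (median 1.02%) in low-share cells, without overlap. The 80 cytosolic ribosomal protein genes took 4.05% ± 0.130 against 5.77% ± 0.385. These 5 measures differed in the same direction in 10 of 10 hashtags, each with an adjusted p of 0.00273 (exact two-sided sign-flip permutation test over 10 hashtags, Benjamini-Hochberg over 7 measures, raw p 0.00195, the smallest it can give).

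Malat1, a long noncoding RNA kept in the nucleus, did not pass: it took 2.38% ± 0.154 of UMIs in members and 2.40% ± 0.164 in low-share cells (adjusted p = 0.383, exact sign-flip permutation test, lower in 7 of 10 hashtags). Immediate early genes, which are induced within minutes of a stimulus, took 0.343% ± 0.206 against 0.351% ± 0.196 (adjusted p = 0.564, exact sign-flip permutation test, lower in 8 of 10). Without Oil2 the immediate early difference of -0.0201 percentage points passed, with an adjusted p of 0.00911 by the same exact permutation test.

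**Figure D3:**
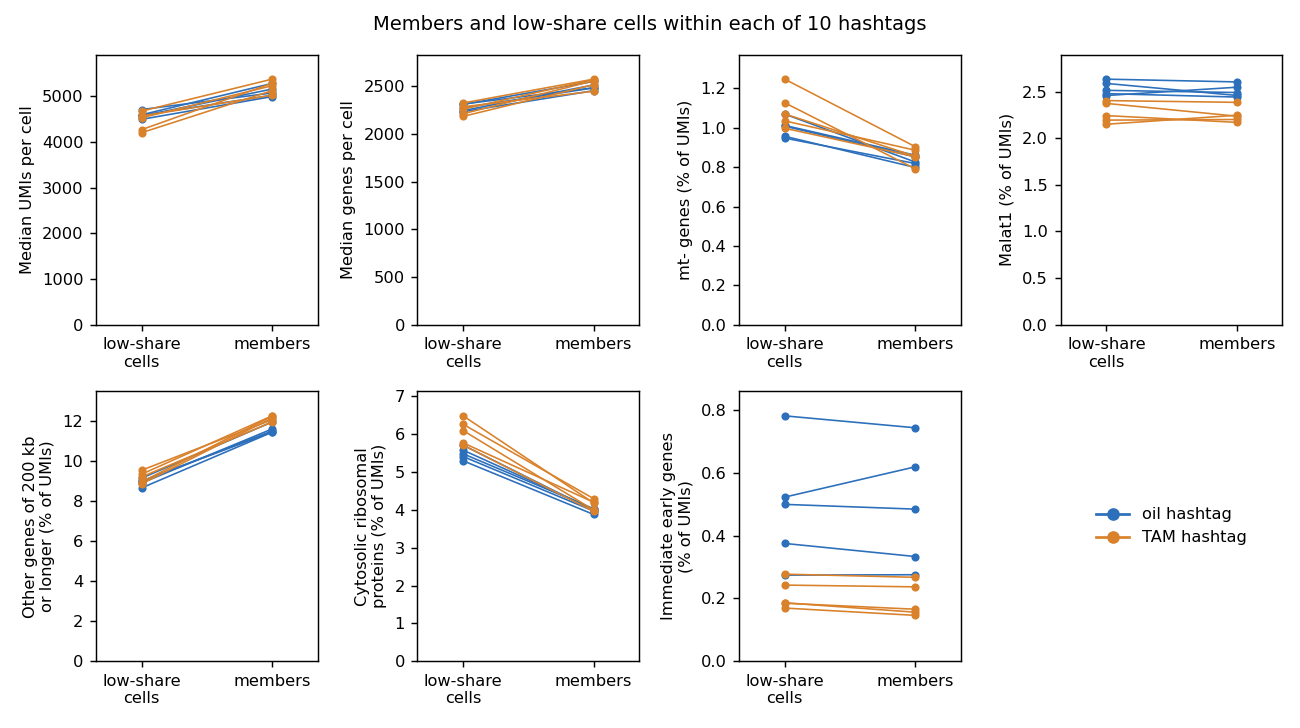
Each of the 7 cell measures (y axes from 0, units on each axis) in low-share cells and in members, with a line per hashtag. Lines for other genes of 200 kb or longer all go up, lines for mt- and ribosomal protein genes all go down, and Malat1 lines go both ways.

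Gene by gene, 1472 of 8694 genes tested were higher in members (16.9%) and 1574 were lower (18.1%), together 35% of those tested (edgeR quasi-likelihood test with hashtag as a block, Benjamini-Hochberg adjusted p under 0.05). With scaling by library size alone the split was 1858 higher and 1342 lower, so which direction had more genes depends on the scaling. The order followed gene span. Of 379 genes of 200 kb or longer, 287 were higher and 5 lower, with a median log2 fold of 0.33. Of 788 genes of 100 to 200 kb, 442 were higher and 19 lower (median 0.23), and of 2824 genes of 30 to 100 kb, 617 were higher and 154 lower (median 0.10). Genes of 10 to 30 kb had a median of -0.08 (110 higher and 525 lower of 2860), and genes under 10 kb a median of -0.27 (16 higher and 871 lower of 1843). Of those 16 short genes, 15 were unnamed Gm or Rik clones. Over all genes the median was -0.01. With library size scaling it was 0.04, and genes under 10 kb and of 200 kb or longer had medians of -0.23 and 0.37.

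The gradient was not carried by the ribosomal, mitochondrial and oxidative phosphorylation genes alone. Without them, genes under 10 kb had a median of -0.26 and genes of 200 kb or longer 0.33. In the part of the UMIs that did not choose the cells, the medians of these bins were -0.26 and 0.28, and over deeper cells with 7 markers they were -0.25 and 0.30. Across genes, span and log2 fold had a Spearman correlation of 0.642, a description over 8694 genes that share the same libraries.

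**Figure D4:**
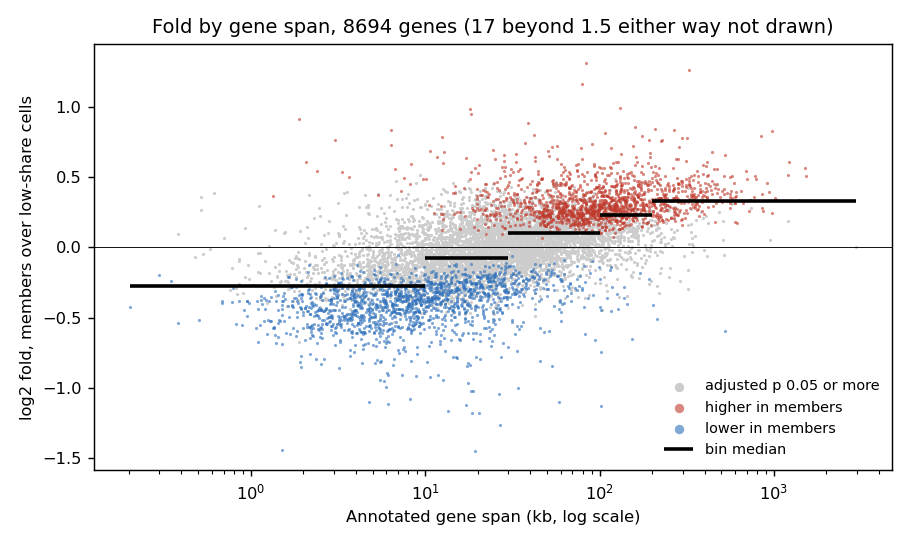
Log2 fold of members over low-share cells (y axis) against annotated gene span in kb (x axis, log scale) for the genes tested, coloured by the edgeR call, with black lines at the medians of 5 span bins. The bin medians climb from -0.27 under 10 kb to 0.33 at 200 kb and over; 17 genes beyond 1.5 either way are not drawn.

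The 10 higher genes with the smallest p, out of those above 20 CPM that were higher in every hashtag, were Slc8a1, Elmo1, Csmd3, Ldlrad4, Nav2, Dock4, Ccnd3, Tanc2, Plcl1 and Plxna4. Ccnd3, the cell cycle regulator cyclin D3, spanned 95 kb, and the other 9 spanned 335 kb to 1211 kb. Slc8a1, a sodium-calcium exchanger, was at 1957 to 2449 CPM in members (median 2118) and at 1336 to 1757 CPM in low-share cells (median 1513). Elmo1, which with DOCK proteins forms an activator of the GTPase RAC1, was at 2433 to 2808 CPM (median 2553) against 1623 to 2037 CPM (median 1827). In each case every hashtag's members lay above every low-share sum. Their log2 folds were 0.51 ± 0.03 (SE, adjusted p = 7.0e-25) and 0.51 ± 0.03 (adjusted p = 1.5e-24, edgeR). Plxna4, a semaphorin receptor subunit, had the largest fold of the 10, with a log2 fold of 0.68, and Tanc2, a scaffold protein, the smallest, with 0.40. Relative to the median of their span bin, Slc8a1 and Elmo1 were 0.18 higher on the log2 scale.

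The 10 lower genes with the smallest p were Cd74, H2-Ab1, Apoe, Ftl1, Fth1, Fau, H2-D1, Ctsz, Cst3 and Actb, which span 2 kb to 12 kb. Cd74, the invariant chain of MHC class II, was at 3.94 to 15.2 CPM in members (median 10.8) and at 41.5 to 629 CPM in low-share cells (median 256). H2-Ab1, an MHC class II beta chain, was at 1.04 to 10.1 CPM (median 3.09) against 15.1 to 256 CPM (median 99.4). Few cells carried both genes: the 20 richest cells held 79.8% of the low-share cells' Cd74 UMIs and 87.8% of their H2-Ab1 UMIs, and cells with fewer than 7 microglial markers held 36.9% and 35.5%. Over deeper cells with 7 markers the log2 fold of Cd74 was -3.90, against -4.88 over all cells, and H2-Ab1 was not tested there because its counts were too low.

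Apoe, a lipid carrier that rises in activated microglia, was at 162 to 424 CPM in members (median 312) and at 550 to 1534 CPM in low-share cells (median 1251). Its 20 richest low-share cells held 34.8% of its UMIs, and its log2 fold was -1.95 ± 0.08 (SE, adjusted p = 6.0e-30, edgeR) over all cells and -1.78 over deeper cells with 7 markers. Cst3, the gene of cystatin C, an inhibitor of cysteine proteases, was at 25255 to 34117 CPM (median 28264) against 32107 to 44584 CPM (median 38416), with the ranges overlapping but members lower in 10 of 10 hashtags (log2 fold -0.38 ± 0.02, adjusted p = 1.3e-24). Fth1 and Ftl1, the ferritin chains, had log2 folds of -0.69 and -0.77, and Actb, cytoplasmic actin, -0.47. Values of Ftl1, Fth1, Fau, Actb and H2-D1 are uncertain, since near-identical copies can share their reads.

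Only 5 genes of 200 kb or longer were lower in members: Arhgap15, Xylt1, Bri3, Atrnl1 and Epb41l3, named after their values were seen. Arhgap15, a RAC1 GTPase-activating protein, was at a mean of 23.7 CPM in members and 74.2 CPM in low-share cells (log2 fold -1.67 ± 0.13 SE, adjusted p = 2.9e-17, edgeR), and Xylt1, a xylosyltransferase, at 13.8 and 39.6 CPM. The 20 richest low-share cells held 24.96% of the Arhgap15 UMIs and 35.9% of the Xylt1 UMIs.

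Gene lists that match the roles of the 7 genes gave mixed counts, with the 7 genes themselves left out. Of 37 actin-regulating small GTPases and their regulators tested, 16 were higher and 7 lower, (16.9% and 18.1% over all genes), with a median log2 fold of 0.15 against -0.01 over all genes. Of the 37, 11 span 200 kb or more, and relative to the medians of their span bins the list's median was -0.03. The higher genes included the exchange factors Dock4 (0.45), Dock2 (0.33) and Dock8 (0.26) and the GTPase-activating protein Srgap2 (0.38). Of the GTPase genes themselves, Rhoa (-0.30), Cdc42 (-0.25), Rac2 (-0.45), Rhoc (-0.67) and Rac1 (-0.13) were lower, and Rhob did not pass (-0.07, adjusted p = 0.143, edgeR). Of 18 genes of protein kinase C and diacylglycerol signalling, 10 were higher and 2 lower, with a median of 0.28, or 0.17 relative to span bins. Prkca (0.58) and Prkcb (0.37), other protein kinase C isoforms, and the phospholipase C-like genes Plcl1 (0.52) and Plcl2 (0.38) led this list. The isoform Prkch (-0.23) and Marcks (-0.18), a protein kinase C substrate, were lower. The isoforms Prkci (0.44) and Prkcd (-0.02) did not pass.

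For cell polarity, 4 of 7 genes were higher, none lower, with a median of 0.23 (0.08 relative to span bins), led by Dlg1 (0.23). All 6 other common fragile site genes tested were higher, with a median of 0.48: Wwox, an oxidoreductase gene, was at 334 CPM in members and 242 CPM in low-share cells and Sdk1, a cell adhesion gene, at 255 and 144 CPM. All 6 span 200 kb or more, and their median relative to that bin was 0.15. Among 16 myosins, 5 were higher, such as Myo9a (0.27), and 5 lower, such as the light chains Myl6 (-0.57) and Myl12a (-0.53), with a median of 0.04. Of 22 palmitoylation enzymes, none was higher and 2 were lower, Ppt1 (-0.20) and Golga7 (-0.31), with a median of -0.06. None of the other ZDHHC acyltransferases tested passed in either direction.

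Respiratory chain genes were lower from both genomes. All 22 nuclear oxidative phosphorylation genes were lower, with a median of -0.44, among them Cox4i1 (261 against 374 CPM) and Atp5e (131 against 199 CPM). Of the 13 mitochondrially encoded genes, 12 were lower, with a median of -0.33, such as mt-Co3 (1416 against 1857 CPM). mt-Nd6 did not pass, at 21.1 against 17.3 CPM. Relative to the medians of their span bins, the nuclear genes had a median of -0.20 and the mitochondrially encoded genes one of -0.05.

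Microglial identity genes went both ways. Of 14 markers, P2ry12 was higher (log2 fold 0.07) and 9 were lower, led by C1qb (-0.41), C1qa (-0.37) and Trem2 (-0.36), with a median of -0.10. Over all genes 16.9% were higher and 18.1% lower. Relative to span bins the median of the markers was -0.06, and C1qb, C1qa and Trem2 were at -0.14, -0.09 and -0.09. Sall1, Fcrls, Siglech and Cx3cr1 did not pass. Of 20 homeostatic genes, 6 were higher and 9 lower, with a median of -0.01 (0.02 relative to span bins). The higher ones included Entpd1, an ATP-degrading ectoenzyme (1068 against 851 CPM), Tgfbr1, a TGF-beta receptor (2990 against 2530 CPM), and Mef2c, a transcription factor (1838 against 1610 CPM). Relative to span bins Entpd1 was 0.10 and Tgfbr1 0.14 higher, while the log2 fold of Mef2c, 0.19, was below its bin's median of 0.23.

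Genes of disease-associated and interferon states that could be tested were lower, and chemokine and immediate early genes in part. All 11 disease-associated microglia genes tested were lower, with a median of -0.58 (-0.52 relative to span bins): besides Apoe, Cd63 (220 against 414 CPM), Ctsb (767 against 1160 CPM) and Lpl (4.46 against 48.5 CPM). All 4 interferon response genes were lower, among them Bst2 (76.8 against 138 CPM) and Ifitm3 (6.17 against 61.3 CPM). For Ifitm3, cells with fewer than 7 markers held 54.8% of the low-share cells' UMIs. Of 8 chemokine and cytokine genes, 6 were lower, led by Ccl12 (42.3 against 140 CPM), while Nfkbiz and Ccl2 did not pass. Of 16 immediate early genes, 8 were lower, among them Zfp36 (-0.34) and Klf2 (-0.79), and 8 did not pass, with Jun at 0.08, Egr1 at 0.13 and Fos at 0.03. Of all genes under 10 kb, 47.3% were lower, and relative to span bins the immediate early list had a median of 0.09. Both cell cycle genes tested, Stmn1 and Pcna, were lower, as were 2 of 7 p53 targets, Bax and Cdkn1a. Among 8 nuclear noncoding RNAs, Mir99ahg, Firre, Kcnq1ot1, Ftx and Jpx were higher and Malat1 was lower by this test (log2 fold -0.06, adjusted p = 0.024, edgeR). Relative to the median of its span bin, Malat1 was 0.22 higher on the log2 scale.

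Of other cell types' listed genes, few were expressed enough to test. Csf3r (neutrophils; 0.20), Rbfox1 (neurons; 0.50), Slc1a3 (astrocytes; 0.13) and Pecam1 (endothelial cells; 0.54) were higher in members, Bsg (endothelial cells; -0.38) was lower, and Mbp and Mag (oligodendrocytes) did not pass. The part of such RNA in the results was not tested.

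Over 40 sums of hashtag and band, the genes whose CPM most resembled that of the 7 genes summed were Zfhx3 (Pearson r = 0.935), Plxna4 (0.933), Elmo1 (0.932), Dock4 (0.929) and Tanc2 (0.922) among 6755 genes compared. The 40 sums come from 10 hashtags and share one total, so this is a description. Zfhx3, a transcription factor gene of 1019 kb, rose from a mean of 1596 CPM in low-share cells through 1789 and 1879 to 2091 CPM in members.

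The share of members was higher on average in TAM than in oil hashtags, but the difference did not pass its test. Members made up 20.96%, 18.9%, 21.2%, 27.5% and 20.2% of singlets in Oil1 to Oil5 and 21.9%, 19.2%, 29.5%, 35.4% and 32.7% in TAM1 to TAM5. The means were 21.7% ± 3.31 and 27.7% ± 6.95 (SD, n = 5; p = 0.103, exact two-sided permutation test). TAM1 and TAM2, which read as male, lay within the oil range, and TAM3, TAM4 and TAM5 above it. In all singlets, without the cut, the 7 genes took 0.134% ± 0.00777 of UMIs in oil and 0.149% ± 0.0170 in TAM hashtags (SD, n = 5; p = 0.0952, exact permutation test).

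Split by sex, after seeing the data, the female shares were 22.9% ± 3.94 in oil and 32.5% ± 2.92 in TAM without overlap (SD, n = 3; p = 0.1, exact permutation test, the smallest it can give). The male means were 19.95% and 20.5% (n = 2; exact permutation p = 0.667, with 0.333 the smallest possible). Whether the treatment difference itself differed between the sexes was not tested. Leaving out TAM2 gave a p of 0.0476 for the share and 0.0397 for the percent of UMIs (exact permutation tests).

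**Figure D5:**
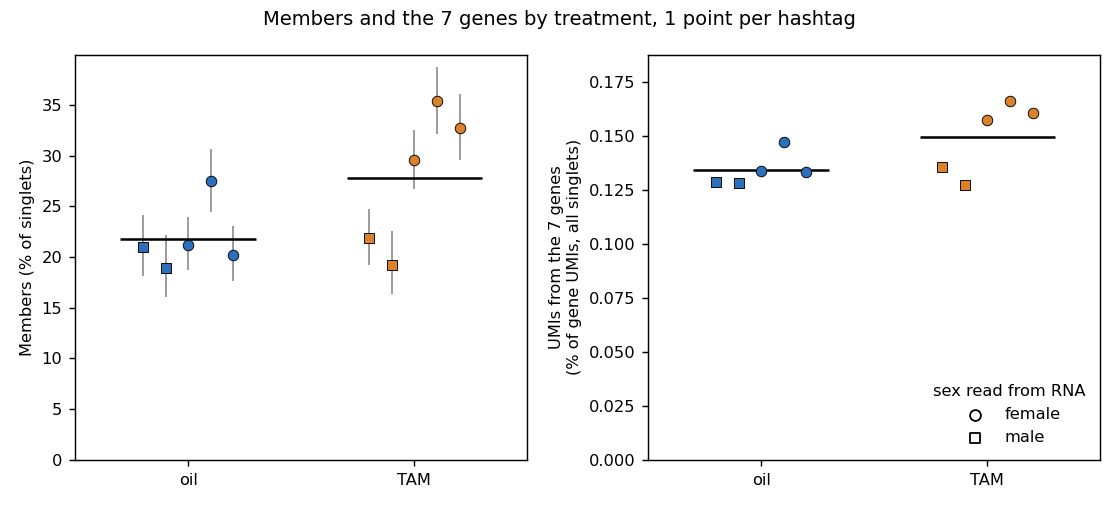
Members as a percent of singlets with 95% Wilson intervals for counting error (left) and percent of gene UMIs from the 7 genes in all singlets (right), 1 point per hashtag, with a line at the mean of 5. Female TAM hashtags, at 29.5% to 35.4% members, lie above the female oil hashtags, at 20.2% to 27.5%, and male hashtags of both treatments at 18.9% to 21.9%.

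Single genes of the 7 were then tested for treatment in all singlets, where 519 of 11238 genes passed (4.62%), with 193 higher (1.72%) and 326 lower (2.9%) in TAM (edgeR quasi-likelihood test). With scaling by library size alone this split was 349 higher and 254 lower. None of the 7 passed. Fhit was at 351, 340, 326, 365 and 326 CPM in Oil1 to Oil5 and at 408, 313, 394, 399 and 438 CPM in TAM1 to TAM5 (log2 fold 0.19 ± 0.07 SE, adjusted p = 0.118). All TAM values except that of TAM2 lay above the oil values. The oil values of Zdhhc14 were 200, 215, 212, 224 and 230 CPM and its TAM values 233, 242, 230, 251 and 224 CPM (log2 fold 0.13 ± 0.05, adjusted p = 0.138), with overlap through TAM3 and TAM5. For Dlc1 the oil hashtags had 137, 125, 146, 184 and 132 CPM and the TAM hashtags 92.5, 112, 175, 186 and 182 CPM (log2 fold 0.05 ± 0.16, adjusted p = 0.917). The male TAM hashtags were the lowest of the 10 for Dlc1.

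Cdc42bpa had an adjusted p of 0.144, Prkce 0.447, Pard3b 0.6014 and Myo18b 0.962 (edgeR). With sex as a covariate Cdc42bpa passed (log2 fold 0.25, adjusted p = 0.041), and Fhit passed over female hashtags alone (log2 fold 0.28, adjusted p = 0.0054) and without TAM2 (log2 fold 0.26, adjusted p = 0.0086). Fhit also passed without a filter on low counts (adjusted p = 0.0459, edgeR) and with a block pairing same-numbered oil and TAM hashtags (0.0452), each with a log2 fold of 0.19.

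Within members, most immediate early genes were lower in TAM. Of 8902 genes tested, 123 passed (1.38%), with 18 higher (0.202%) and 105 lower (1.18%) in TAM, and 66 (0.741%) both passed and did not overlap between treatments (edgeR). With library size scaling the split was 38 higher and 95 lower. Of 15 immediate early genes, 14 were lower, with a median log2 fold of -1.69 against 0.00 over all genes. Egr1, an immediate early transcription factor, was at 362, 295, 262, 128 and 114 CPM in Oil1 to Oil5 and at 48.3, 12.0, 10.7, 3.40 and 3.03 CPM in TAM1 to TAM5 (log2 fold -4.03 ± 0.39 SE, adjusted p = 4.1e-07). Ier2, another such gene, ranged from 31.0 to 117 CPM over oil hashtags and from 3.33 to 23.1 CPM over TAM hashtags (log2 fold -2.74, adjusted p = 6.1e-05). Low-share cells had lower TAM means too, 191 and 28.6 CPM for Egr1 and 89.6 and 17.5 CPM for Ier2 (oil and TAM). For neither gene did the treatment effect pass as different between members and low-share cells (adjusted p = 0.437 and 0.939, edgeR interaction test). Klf2, Klf4 and Atf3, also on the list, did pass that test. The immediate early share of members' UMIs was 0.742%, 0.618%, 0.484%, 0.333% and 0.275% in Oil1 to Oil5 and 0.267%, 0.237%, 0.166%, 0.156% and 0.146% in TAM1 to TAM5. The TAM value was below the oil value at each of the numbers 1 to 5. In low-share cells this share ran from 0.780% in Oil1 to 0.169% in TAM5. The immediate early level used below was not this share but the mean log2 CPM of all listed genes over all singlets of a hashtag. With that level as a covariate 20 genes passed. With the position of the hashtag from 1 to 10 (Oil1 to Oil5, then TAM1 to TAM5) 10 genes passed. In this order all oil hashtags precede all TAM hashtags. The immediate early share of members was likewise higher in every oil than in every TAM hashtag. The smaller counts of genes with these covariates therefore cannot tell a covariate from treatment. The log2 fold of Egr1 became -2.25 (adjusted p = 0.000188, edgeR) with the immediate early level and -1.38 (0.157) with position, and that of Ier2 -1.13 (0.357) and -0.61 (0.890). Both genes belong to the list that sets the immediate early level. Their smaller folds with that covariate are therefore partly built in and say nothing about treatment.

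Of 8 chemokine and cytokine genes, 3 were lower in TAM members, Ccl4, Ccl2 and Nfkbiz, and none higher, with a median of -1.28. Ccl4, a chemokine made by activated microglia, had 101.4, 130, 106, 89.4 and 136 CPM in members of Oil1 to Oil5 and 10.1, 1.71, 7.99, 15.6 and 3.03 CPM in those of TAM1 to TAM5 (log2 fold -3.70 ± 0.23 SE, adjusted p = 3.3e-11). It kept a log2 fold of -3.85 with the immediate early covariate and -3.83 with hashtag position. The 20 richest members held 58.0% of its 524 UMIs. Mat2a, which makes S-adenosylmethionine, had means of 276 and 162 CPM and H3f3b, a histone H3.3 gene with near-identical copies, of 963 and 583 CPM. Both passed in the fit without covariates, with log2 folds of -0.78 and -0.72, but not with the immediate early level (-0.43 and -0.25, adjusted p = 0.294 and 0.605, edgeR) or with position (-0.32 and -0.17, adjusted p = 0.728 and 0.895). In low-share cells the oil and TAM means were 311 and 204 CPM for Mat2a and 1097 and 743 CPM for H3f3b. Neither passed the interaction test (adjusted p = 0.882 and 0.757, edgeR).

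The 5 higher genes without overlap and with the smallest p were Ttc14, Sv2a, Crk, Snx13 and Ripor2. Crk, an adaptor protein of integrin signalling, had oil values of 91.0, 86.0, 100, 81.2 and 96.8 CPM and TAM values of 120, 127, 122, 127 and 112 CPM (log2 fold 0.41 ± 0.09 SE, adjusted p = 0.0189). Ripor2, an inhibitor of RhoA, ranged from 3.65 to 16.8 CPM over oil hashtags and from 17.3 to 49.7 CPM over TAM hashtags (log2 fold 1.34 ± 0.32, adjusted p = 0.0254). Cdkn1a, the p53 target encoding p21, had means of 23.4 and 54.5 CPM (log2 fold 1.37 ± 0.28, adjusted p = 0.00723) with overlap, and was picked out after its values were seen. It no longer passed by DESeq2 (adjusted p = 0.297), without Oil3 (0.0582) or without TAM3 (0.0655). Cdkn1a passed in female hashtags alone (log2 fold 1.75, adjusted p = 5.8e-05, edgeR) but not in male hashtags alone (0.31, adjusted p = 0.900). Whether its fold differed between the sexes was not tested. Ttc14 passed without each hashtag in turn, while the other genes did not: Sv2a was lost without Oil1, Oil3, TAM4 or TAM5, Crk without Oil4, TAM3 or TAM4, Snx13 without Oil2, Oil3, TAM3 or TAM5 and Ripor2 without Oil2, Oil4, TAM2 or TAM5, with adjusted p up to 0.0869. None of these 6 genes passed with the immediate early covariate or with hashtag position. The log2 folds with these covariates were 0.44 and 0.45 for Crk, 0.34 and 0.34 for Snx13 (0.29 without) and 2.21 and 2.10 for Ripor2, so these did not shrink. Those of Ttc14 (0.45 without), Sv2a and Cdkn1a were smaller with the covariates, at 0.20 and 0.09, 0.56 and 0.53, and 0.35 and 0.31.

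A treatment effect that differed between members and low-share cells was found for 11 of 9273 genes (0.119%, with 1 higher, 0.0108%, and 10 lower, 0.108%; edgeR test of the interaction with hashtag as a block), 1 of them, Klf2, by DESeq2. Il7r, the interleukin 7 receptor alpha chain, had means of 99.2 CPM in oil and 151 CPM in TAM members and 102 CPM in both groups of low-share cells (interaction log2 0.61 ± 0.14 SE, adjusted p = 0.0378). For the other 10 the TAM log2 fold was lower in members than in low-share cells: Ccl4, Klf2, Ccl2, Lyz2, Apoe, Klf4, Atf3, Hsp90aa1, Cd74 and Slc16a3. In members alone Apoe, Lyz2, Cd74 and Slc16a3 did not pass for TAM (adjusted p = 0.743, 0.210, 0.127 and 0.0525, edgeR). Their low-share means were higher in TAM than in oil: 1373 and 914 CPM (Apoe), 497 and 325 (Lyz2), 335 and 218 (Cd74) and 32.8 and 21.2 (Slc16a3). Ccl4 fell from a mean of 113 to 7.68 CPM in members but low-share cells had 146 ± 75.8 CPM with oil and 192 ± 162 CPM with TAM (SD, n = 5), where its 20 richest cells held 68.9% of UMIs. Its low-share values in TAM1 to TAM5 were 291, 309, 329, 10.2 and 19.9 CPM. Lyz2 and Apoe no longer passed without Oil3 (adjusted p = 0.0676 and 0.0526), Klf4 without TAM4 (0.0691), and Atf3, Hsp90aa1, Cd74, Slc16a3 and Il7r each without 2 to 7 of the 10 hashtags in turn. Ccl4, Klf2 and Ccl2 passed in each such fit.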

How the data were processed

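The authors deposited 1 matrix of raw UMI counts for a pooled gene expression and hashtag library, from 10x 3′ v3.1 libraries per the labels' protocols. Per the file headers the pipeline was Cell Ranger 7.0.0, and the submitters' processing notes give mm10 as the build. The annotation, the use of intronic reads and the choice of deposited barcodes are not given in the sources used. Hashtags were assigned with HTODemux (Seurat 5.3.0, quantile 0.99) over 9975 barcodes, which gave 8055 singlets, 1737 doublets and 183 barcodes without a hashtag. The latter groups were left out; doublets within a hashtag remain. Singlets needed 500 genes, 1000 UMIs and at most 10% mt- UMIs (7903 cells, 39624357 UMIs). Members and low-share cells were taken over all of them.

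Counts were summed per hashtag and band and tested with edgeR 4.0.16 (TMM, filterByExpr, quasi-likelihood F test, Benjamini-Hochberg at 0.05), and DESeq2 1.42.0 was an alternative. CPM are per total UMIs of a sum, or after TMM scaling in the tests; SE is the size of the log2 fold over the root of F. Spans came from GENCODE M21. On simulated data with 200 genes changed by 1 log2 unit, 99% were recovered for members against low-share cells, 91% for TAM within members, 69% for the interaction and 97% for all singlets. Unchanged genes called were 9, 17, 2 and 13 in the same order. The simulation gave all genes the same dispersion and no hashtag effects, so it does not gauge the recovery of smaller folds. The labels do not say whether hashtag numbers pair oil with TAM hashtags. For that reason they were not taken as pairs, although each same-numbered correlation was above the median with other numbers. The genes named are the 7 genes, the 10 each way of smallest p with 1 direction in 10 of 10 hashtags and at least 20 CPM, the 5 each way for TAM without overlap, list members of smallest p, and others said to be picked later; more list members than the rule's 4 are named. Members and lists were chosen with earlier results of these data known. Intervals cover counting error only. Values of some listed genes are not reported here.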

Additional observations from a re-analysis of the deposited data

Results flagged for a closer look

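Oil4 stood apart from the other oil hashtags in its share of members, 27.5%, with a gap to the next hashtag of 0.734 of the group's range. Oil2 stood apart in the immediate early share of members minus that of low-share cells, at 0.0961 percentage points, with a gap of 0.689 of the range of the 5 oil hashtags. Some groups are marked in this way by chance, and 2 of 25 groups were marked.

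For 11 genes the TAM effect differed between members and low-share cells by the edgeR interaction test with hashtag as a block. The log2 differences were -3.95 for Ccl4, -4.26 for Ccl2, -2.14 for Klf2, -2.48 for Klf4, -1.40 for Atf3 and -1.28 for Slc16a3. They were -1.03 for Lyz2, -0.77 for Apoe, -0.53 for Hsp90aa1, -1.72 for Cd74 and 0.61 for Il7r. Ccl2, a monocyte-attracting chemokine, was at a mean of 44.4 CPM in oil and 4.18 CPM in TAM members, but 143 CPM of it in Oil5 set the oil mean, and the other oil hashtags lay at 15.5 to 27.6 CPM. The 20 richest members held 84.7% of its UMIs. Lyz2, lysozyme, was at means of 325 CPM in oil and 497 CPM in TAM in low-share cells, where cells with fewer than 7 microglial markers held 27.4% of its UMIs. Over deeper cells with 7 markers its difference was -0.38 (adjusted p = 0.649, edgeR), that of Klf4 -0.87 (0.89) and that of Klf2 -1.61 (0.000239).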

How the results depend on the processing

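Members against low-share cells gave 3046 genes by edgeR, 1843 by DESeq2, 1693 when one part of the UMIs chose and the other was measured, and 1251 after thinning to 2000 UMIs, where fewer genes were tested. Of the last 2 sets, 1569 and 1197 were among the 3046. Without each hashtag in turn the count ran from 2769 to 2966. Of 151 called list and long genes, 114 passed by DESeq2 and 141 over deeper cells with 7 markers. The log2 fold of Il1a turned to 0.049 (thinned) and 0.045 (split UMIs) and that of Prkch to 0.094 (top and bottom 10% of cells), and the cause was not tested. The 5 cell measures that passed kept their call in each alternative run. The Malat1 difference, which never passed, turned to 0.0114, 0.0214 and 0.0137 percentage points with cells chosen without Zdhhc14, Prkce or Pard3b. The immediate early difference ran from -0.0201 to -0.00482 points over the leave-outs and passed only without Oil2.

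The difference in the share of members ran from 4.09 to 8.12 points without each hashtag in turn, and that in the percent of UMIs from 0.0111 to 0.0208. Both passed only without TAM2. For TAM against oil in members, the count of 123 genes became 316 without a filter on low counts, 217 with sex as a covariate, 20 with the immediate early level, 10 with hashtag position (1 to 10) and 54 in male hashtags alone, and 76 (without Oil3) to 199 (without TAM1) over the leave-outs. The interaction count of 11 became 1 by DESeq2, 7 over deeper cells with 7 markers and 6 (without Oil3) to 16 (without TAM1) over the leave-outs; without TAM4 it was 7. In all singlets the count of 519 became 851 without a filter, 886 with sex, 55 with the immediate early level, 38 with hashtag position, 108 in male hashtags alone and 259 to 682 over the leave-outs. The lowest counts came without TAM4 (259), Oil3 (263), TAM5 (266), TAM3 (300) and Oil2 (335).

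With a replicate block that pairs same-numbered oil and TAM hashtags, 237 genes passed in members and 904 in all singlets. The correlation of same-numbered deviations in members was 0.163, 0.0702, 0.0543, 0.056 and 0.0544 for numbers 1 to 5, and in all singlets 0.330, 0.165, 0.0770, 0.120 and 0.109. In each case 3 of 5 oil hashtags correlated best with their own number. The median correlation of an oil hashtag with TAM hashtags of other numbers was lower at each number. In members these medians were -0.100, -0.036, 0.0014, -0.015 and 0.010. In all singlets they were -0.159, -0.035, -0.030, -0.056 and 0.013. Sex read from RNA also matched at each number. The main fits left the numbers unpaired because the labels do not pair them, so whether they are pairs is not settled.

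Of the 7 genes in all singlets, 5 changed sign in some fit while missing the threshold; the cause was not tested. With the immediate early level the log2 folds were -0.48 (Dlc1), -0.0071 (Cdc42bpa), -0.087 (Prkce) and -0.20 (Pard3b), and with hashtag position -0.74, -0.075, -0.12 and -0.31. In male hashtags alone they were -0.37 (Dlc1), -0.012 (Prkce) and -0.036 (Pard3b). Myo18b turned to 0.021 with library size scaling and 0.0598 in female hashtags. Over the leave-outs Dlc1 ran from -0.035 to 0.18 and Myo18b from -0.067 to 0.051. At a median of 13 UMIs of the 7 genes per member, membership of single cells near the cut is not resolved at this depth.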
